A study of Mus musculus with 8 samples.

Results

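The 2 of the 8 arrays of the series described here held mouse CD3 T cells 24 h after contact with a poly-L-lysine (PLL) plate alone and naive CD3 T cells of the same time, chosen by their sample labels. The study asked whether T cells held on an adhesive surface respond otherwise to a stimulus, and profiled RNA with 1 microarray for each group. T cells were purified from the spleen and the lymph nodes of C57BL/6J mice by negative selection, which removes other cells with antibodies and leaves the T cells untouched. The PLL array held cells kept at steady state on a PLL-coated plate, and the naive array held cells at steady state with no coating. Stimulation lasted 3 h, after which cells were washed and cultured further. For comparison, ConA and ConA+PLL arrays of 24 h, and the naive 0 h, ConA, PLL and ConA+PLL arrays of the first 3 h, are named where used. ConA (concanavalin A) is a plant lectin used as a T cell mitogen.

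PLL is a polycation that holds cells to plastic through its positive charge. Naive T cells circulate in a resting state kept by interleukin 7 and homing receptors. Contact through the T cell receptor switches on immediate early genes such as Nr4a and Egr factors within hours, then cytokine receptors, metabolic enzymes and the cell cycle. Class II MHC molecules present antigen to CD4 T cells and are made mainly by B cells, dendritic cells and macrophages.

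Levels are log2 signals of the deposited table, and a difference is the PLL level minus the naive level at 24 h, so that 1 unit is 2-fold. Of 22180 named genes, 13428 reached the median of the table (3.62) on at least 1 of the 8 arrays and were compared. With 1 array a side, no difference of this pair could be checked on a replicate, and it has no p-value. Less RNA of a gene per cell and fewer cells that express it cannot be told apart in such bulk RNA. A level of 4.10 served as the mark for dim genes: of 1390 olfactory and vomeronasal receptor genes, made in sensory neurons, 95% stayed at or below it on every array.

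T cell identity genes were at like levels on both arrays, as the label CD3 T cell asks. Cd3e, a chain of the T cell receptor complex, was at 10.71 on both the naive and the PLL array. The coreceptor genes were close too, with Cd4 at 9.78 on the naive and 9.88 on the PLL array. Cd8a was at 9.13 and 9.17. All 17 T cell identity genes that passed the filter, of 20 in the list, differed by -0.11 (Lef1) to 0.10 (Cd4), with a median of -0.03.

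The PLL and naive arrays were the closest of the 28 pairs that the 8 arrays form. Their median absolute difference was 0.13, against 0.15 for the next pair (PLL and ConA at 24 h) and 0.31 for the farthest. Differences had an SD of 0.23 over genes, and 77.5% of genes lay within 0.25 and 96.5% within 0.5. Their median was 0.00, and 50.3% lay above 0. Past 2-fold were 13 genes with a higher level on the PLL array (0.0968% of those compared) and 8 with a lower one (0.0596%). At 1.5-fold the counts were 136 higher (1.01%) and 127 lower (0.946%). The spread narrowed with level, from an SD of 0.36 over 91 genes with a mean level under 3 to 0.12 over 974 genes at 8 or more.

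**Figure D1:**
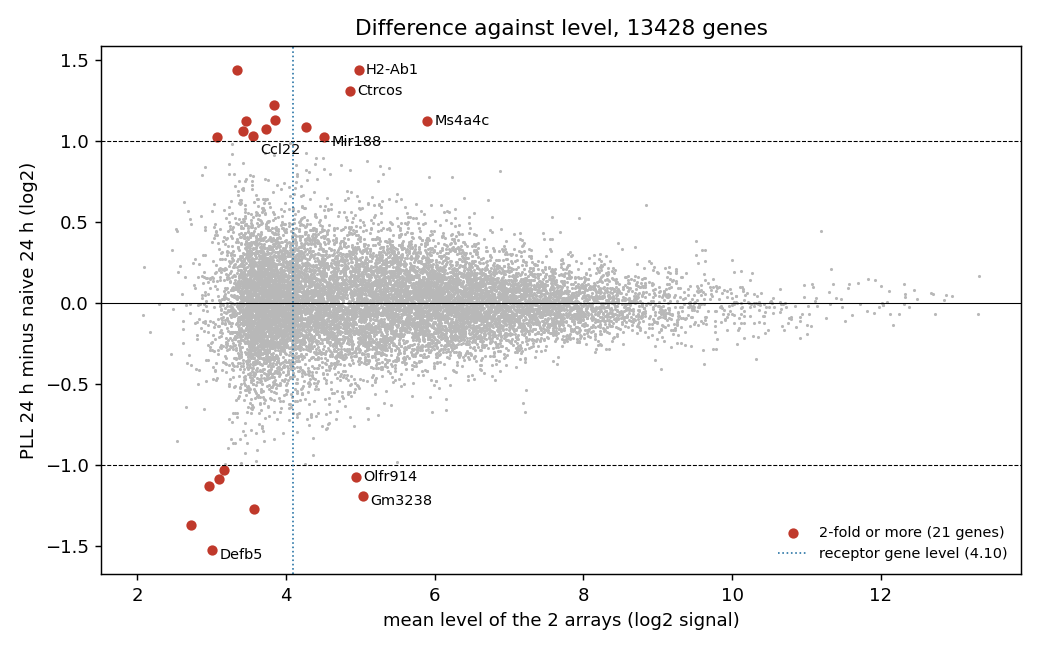
Each point is 1 of the 13428 genes, with the mean level of the PLL and naive arrays at 24 h on the x axis (log2) and their difference on the y axis (log2). The 21 genes at least 2-fold apart (red, outside the dashed lines) lie mostly near or below the level of receptor genes (dotted line, 4.10), and the cloud narrows toward bright genes.

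Most of the 21 genes at least 2-fold apart were dim. For 10 of them both levels were under 4.10, for 6 others the lower level was, and 5 had both levels at or above it. Among all 13428 genes 3287 had both levels under 4.10 and 9364 had neither. The 5 bright ones were H2-Ab1, Ctrcos and Ms4a4c, which were higher with PLL, and Gm3238 and Olfr914, which were lower. Of the 21, 4 were miRNA genes, 2 were olfactory receptor genes and 4 were predicted genes or clones. All 13428 genes held 180 miRNA genes, 152 olfactory or vomeronasal receptor genes and 1066 predicted genes or clones. The filter took part in which genes stand among the 21. Defb5, Esp15, Gm8127 and Mir1969, 4 of the 8 lower genes, reached 3.62 on the naive 24 h array alone, and Gm2046 on the PLL 24 h array alone. These 5 thus passed only through the array where they were high. Genes just inside the limit were Mir188 (1.02) and Esp15 (-1.03), and just outside lay Stxbp3-ps (0.99) and Chac2 (-0.996).

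H2-Ab1, the beta chain of the class II molecule I-A, had the largest difference among genes with both levels at or above 4.10. Its level was 4.26 on the naive and 5.69 on the PLL array, a difference of 1.44. It was at 5.29 on the ConA and 5.81 on the ConA+PLL array of 24 h. It was at 4.73 in naive cells at 0 h and at 4.33 (ConA), 4.22 (PLL) and 4.22 (ConA+PLL) at 3 h, so the naive 24 h level was the lowest at 24 h and close to those of 3 h. Ms4a4c, a member of a family of 4-pass membrane proteins, was at 5.33 on the naive and 6.46 on the PLL array, a difference of 1.12. Its levels on the ConA and ConA+PLL arrays were 6.25 and 7.10, so again the naive array was the lowest at 24 h. Ctrcos was at 4.20 on the naive and 5.51 on the PLL array, with 4.88 on the ConA and 4.61 on the ConA+PLL array.

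Ccl22, a chemokine that attracts cells with the receptor Ccr4, was dim in the pair. It was at 3.04 on the naive and 4.08 on the PLL array, a difference of 1.03, and both levels were under 4.10. Its levels were 4.22 on the ConA and 6.17 on the ConA+PLL array. Tagap1, a gene of the family of Tagap, a GTPase-activating protein of T cells, was at 3.72 on the naive and 4.81 on the PLL array. Tagap itself, far brighter, was at 9.31 and 9.11. The other protein genes past 2-fold that were higher with PLL were Obox3 (an oocyte homeobox gene, 1.07), Olfr1329 (1.06) and Selenon (a selenoprotein of the endoplasmic reticulum, 1.03), next to the unnamed transcripts Gm2046 (1.44) and 8430436N08Rik (1.22). 8430436N08Rik has more than 1 probe set, and the mean of them gave 0.72.

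Genes at least 2-fold lower with PLL were mostly genes of other tissues or unnamed transcripts. Defb5, a defensin gene of epithelia, had the largest difference, -1.53, from 3.77 on the naive to 2.24 on the PLL array. Its ConA and ConA+PLL levels, 2.503 and 2.38, lay next to the PLL level. Obox5 (-1.37), Gm8127 (-1.27), Gpx2-ps1 (a pseudogene, -1.13) and Esp15 (-1.03) were dim on the PLL array as well, with levels from 2.04 to 2.94. Gm3238 was at 5.62 on the naive and 4.44 on the PLL array. The olfactory receptor gene Olfr914 was at 5.48 and 4.41.

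**Figure D2:**
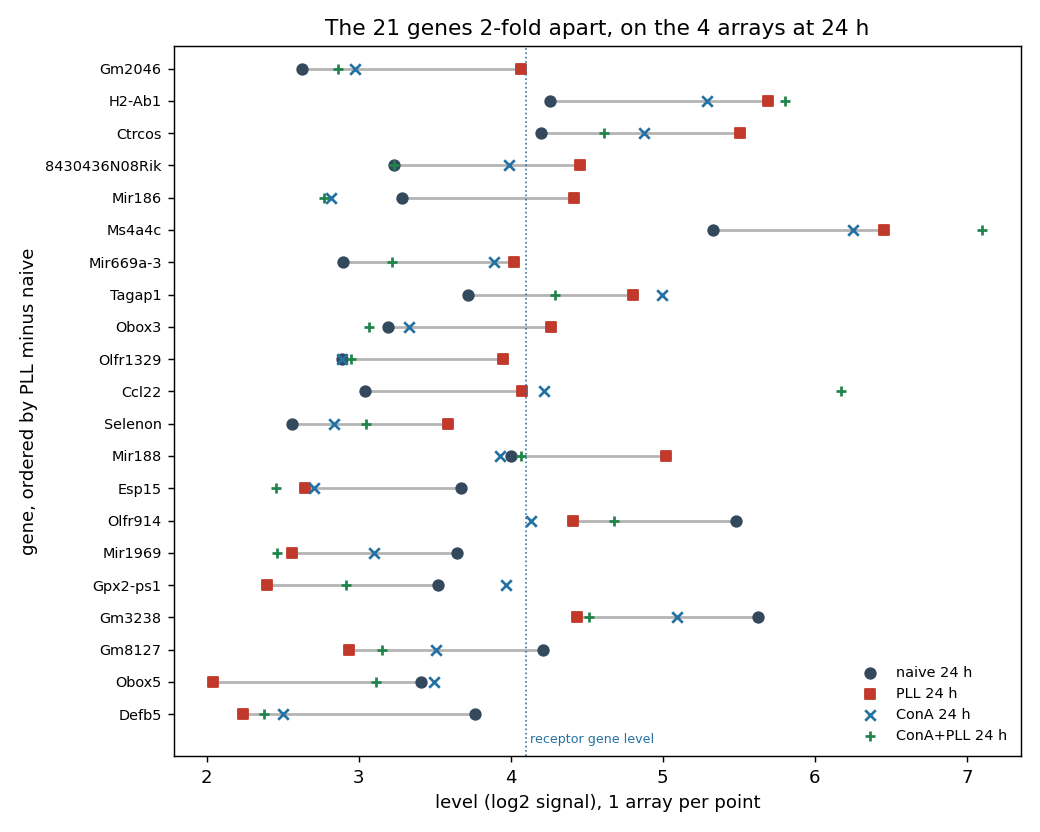
The x axis gives the log2 level and the y axis the 21 genes at least 2-fold apart, with 1 point for each of the naive, PLL, ConA and ConA+PLL arrays at 24 h and a grey line from naive to PLL. Ms4a4c, H2-Ab1, Ctrcos, Gm3238 and Olfr914 stand to the right of the receptor gene level (dotted, 4.10) on all 4 arrays, whereas the others cross it or lie to its left.

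The 4 miRNA genes among them are shown by their mature sequences, because the seed, the part in capitals that pairs with targets (bases 2 to 8), sets which messages a miRNA can bind. The probe sets read the precursor gene, so the arms were not measured apart. RefSeq sequences (GRCm38.p6) were held for 3 of the 4, and Mir669a-3 is named only.
mmu-miR-186-5p: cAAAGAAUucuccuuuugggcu
mmu-miR-186-3p: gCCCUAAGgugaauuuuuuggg
mmu-miR-188-5p: cAUCCCUUgcaugguggaggg
mmu-miR-188-3p: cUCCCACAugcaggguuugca
mmu-miR-1969: aAGAUGGAgacuuuaacaugggu
The 5 seeds all differ. miR-186-5p lies at chr3:157544285-157544306 (+), miR-188-5p at chrX:7248031-7248051 (-) and miR-1969 at chr8:70925541-70925563 (+).

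Mir188 was the brightest of the 4, at 4.002 on the naive and 5.02 on the PLL array, with 3.93 on the ConA and 4.06 on the ConA+PLL array. Mir186 was at 3.28 on the naive and 4.42 on the PLL array, with 2.82 and 2.77 on the ConA and ConA+PLL arrays. For both, the PLL array alone was above 4.10 at 24 h. Mir669a-3 was at 2.90 on the naive and 4.02 on the PLL array. Mir1969 was the one that was lower, at 3.65 on the naive and 2.56 on the PLL array. Over all genes compared, 180 were miRNA genes, of which 8 were higher by 1.5-fold or more and 7 were lower. The shares over all 13428 genes were 1.01% higher and 0.946% lower.

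Among genes with both levels at or above 4.10, the 10 with the largest positive differences were of varied function. After H2-Ab1, Ctrcos and Ms4a4c came Aph1c, a subunit of gamma-secretase, at 4.65 on the naive and 5.52 on the PLL array (0.88). Psme2, a subunit of the proteasome activator, was at 4.84 and 5.68 (0.84). Ifi213, an interferon-inducible gene of the family of nucleic acid sensors, was at 6.47 and 7.28 (0.81), the highest levels of the 10. The others were Gpank1 (0.85, or 0.41 as the mean of its probe sets), D330041H03Rik (0.83), the zinc finger gene Zfp787 (0.82) and Trav3-4 (0.80), a variable segment of the T cell receptor alpha chain. For 9 of the 10 the ConA 24 h level lay nearer to the PLL than to the naive level, and Psme2 was the exception, at 5.20. The same held for 51.6% of all genes and for 60.0% of the 45 genes 1.5-fold higher with both levels at or above 4.10.

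The 10 with the largest negative differences were Gm3238, Olfr914, Gm5936 (-0.98), Sorcs2, Rps15a-ps6, E2f5, Clic3, Nfam1, Dgkh and Gnai1 (-0.72). Nfam1, a receptor that signals to NFAT, was at 4.94 on the naive and 4.20 on the PLL array, and Sorcs2, a sorting receptor, at 4.93 and 4.15. E2f5, a transcription factor of the cell cycle, was at 5.30 and 4.54. Dgkh, a kinase that removes diacylglycerol, was at 4.95 and 4.21, and Gnai1, an inhibitory G protein subunit, at 5.03 and 4.32. All of these lay within 1 unit of 4.10 on the PLL array. The ConA 24 h level was nearer to the naive level for Gm3238, E2f5 and Dgkh and nearer to the PLL level for the others of the 10. Among brighter genes, large differences for the level were few. Singled out after their values were seen, 19 genes differed by at least 4 times the SD of genes of similar level, among them Rnf130 (7.55 on the naive and 6.88 on the PLL array), Heatr5a (7.50 and 6.88), Dtx1, a regulator of Notch signalling (5.84 and 6.62), and Gm6625 (8.54 and 9.14).

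H2-Ab1 had a larger difference than the other class II genes measured. Of 14 genes in the class II presentation list, 11 passed the filter, 7 were above 0 and 4 below, and H2-Ab1 was the single gene past 1.5-fold. The list median was 0.07 (0.23 with no filter), against 0.00 over all genes, and the mean, with H2-Ab1 in it, was 0.26. H2-Aa, the alpha chain that pairs with H2-Ab1, was dim, at 3.85 on the naive and 3.71 on the PLL array (-0.14). H2-Eb1, the beta chain of I-E, was at 4.78 and 5.05 (0.28). Ciita, the master activator of class II genes, was dim, at 3.76 and 3.83. Among the peptide-loading chaperones and their inhibitors, H2-DMa was at 5.62 and 5.57, H2-Oa at 5.23 and 5.57 (0.34) and H2-Ob at 7.24 and 7.67 (0.43), so that H2-Oa and H2-Ob were higher with PLL by less than 1.5-fold. Ctss, the protease that trims the invariant chain, was at 8.53 and 8.56. Cd74, the invariant chain, was not analysed here, as the annotation gave it no separate probe set.

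Class II promoters share a short element, the Y box, which NF-Y binds together with the complex that recruits Ciita. It is shown in stretches of 80 bases from RefSeq promoter windows (GRCm38.p6), since these genes carry a common element but had unlike differences. The windows run from 250 bases before to 50 after the gene start, the letters CTGATTGG (capitals) were sought on both strands, and 4.10% of 32851 windows hold them. Of 11 genes of the list with a window, 4 held the letters. No window of H2-Ab1 was searched, so the comparison leaves it out.
H2-Aa, chr17:34287831-34287910 (-): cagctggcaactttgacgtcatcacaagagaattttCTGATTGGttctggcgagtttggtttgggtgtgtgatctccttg
H2-Eb1, chr17:34305769-34305848 (+): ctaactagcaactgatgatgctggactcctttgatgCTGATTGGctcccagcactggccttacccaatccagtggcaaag
H2-Oa, chr17:34092297-34092376 (+): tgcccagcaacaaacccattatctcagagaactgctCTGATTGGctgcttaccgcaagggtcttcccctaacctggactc
The element starts 51 bases before the gene start in H2-Aa, 62 in H2-Eb1 and 46 in H2-Oa.

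Markers of other cells that could remain after negative selection were mostly dim on both arrays. Of 25 monocyte and macrophage markers 17 passed the filter, and 16 of the 25 had both levels under 4.10. Of the 17, 11 were above 0 and 6 below, with a median of 0.25, the highest of the 37 lists with this filter. With no filter it was 0.09, below the 0.23 of the class II list. C1qb, a complement chain of macrophages, was at 2.98 on the naive and 3.85 on the PLL array. Cybb, the phagocyte oxidase, was at 3.72 and 4.38, and Lyz2, lysozyme, at 4.005 and 4.65, while C1qa (3.94 and 3.71), Csf1r (3.64 and 3.45) and Cd68 (4.70 and 4.67) lay the other way. Their summed signal on the linear scale was 351 on the naive and 394 on the PLL array, and 357 on the ConA array.

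Of 16 B cell markers 6 passed, 3 above and 3 below 0, with a median of 0.00, or 0.27 with the filter raised to 4.10, and the summed signal was 1427 on the naive and 1473 on the PLL array. Most of that was Ighm, the IgM heavy chain, at 10.32 and 10.36, while Cd79a, a chain of the B cell receptor, was at 4.08 and 4.57 and Cd79b at 5.04 and 4.85. Of 14 dendritic cell markers 10 passed, with a median of 0.10 and sums of 1156 and 1230, and of 13 natural killer cell markers 8 passed, with a median of 0.13 and sums of 1037 and 1188. Most of these sums came from 1 bright gene each, Cd209a at 9.93 and 10.01 and Klrd1 at 9.51 and 9.76. The defining markers Cd14 and Adgre1 of macrophages, Ms4a1 of B cells, Siglech of plasmacytoid dendritic cells and Ly6g of neutrophils did not reach the filter. The part of such cells in the H2-Ab1, Ms4a4c and Ccl22 differences was not tested.

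Early activation genes had the lowest median of the 37 lists, -0.16. All 27 passed the filter, 20 were below 0 on the PLL array and 7 above, and 2 were at least 1.5-fold lower. Nr4a2, an orphan nuclear receptor, was at 4.75 on the naive and 3.76 on the PLL array (-0.995). Irf4, a transcription factor of activated lymphocytes, was at 4.69 and 3.94 (-0.76). Cd69, a receptor that appears early after stimulation and keeps T cells in tissue, was at 5.98 and 5.40 (-0.57), and Nr4a3 was at 4.93 and 4.37 (-0.56). In naive cells at 0 h several of these genes had higher levels, at 8.75 for Cd69, 6.94 for Irf4 and 9.18 for Nr4a1, which was at 5.52 on the naive and 5.25 on the PLL array at 24 h. Members above 0 were Egr3 (0.21), Dusp5 (0.21), Ier3, Nfkbid, Dusp1, Zfp36 and Btg2. Myc, the growth regulator, was at 6.78 and 6.62, and Egr1 at 4.88 and 4.77. Under other scalings, filters and probe set rules the median lay between -0.18 and -0.15.

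**Figure D3:**
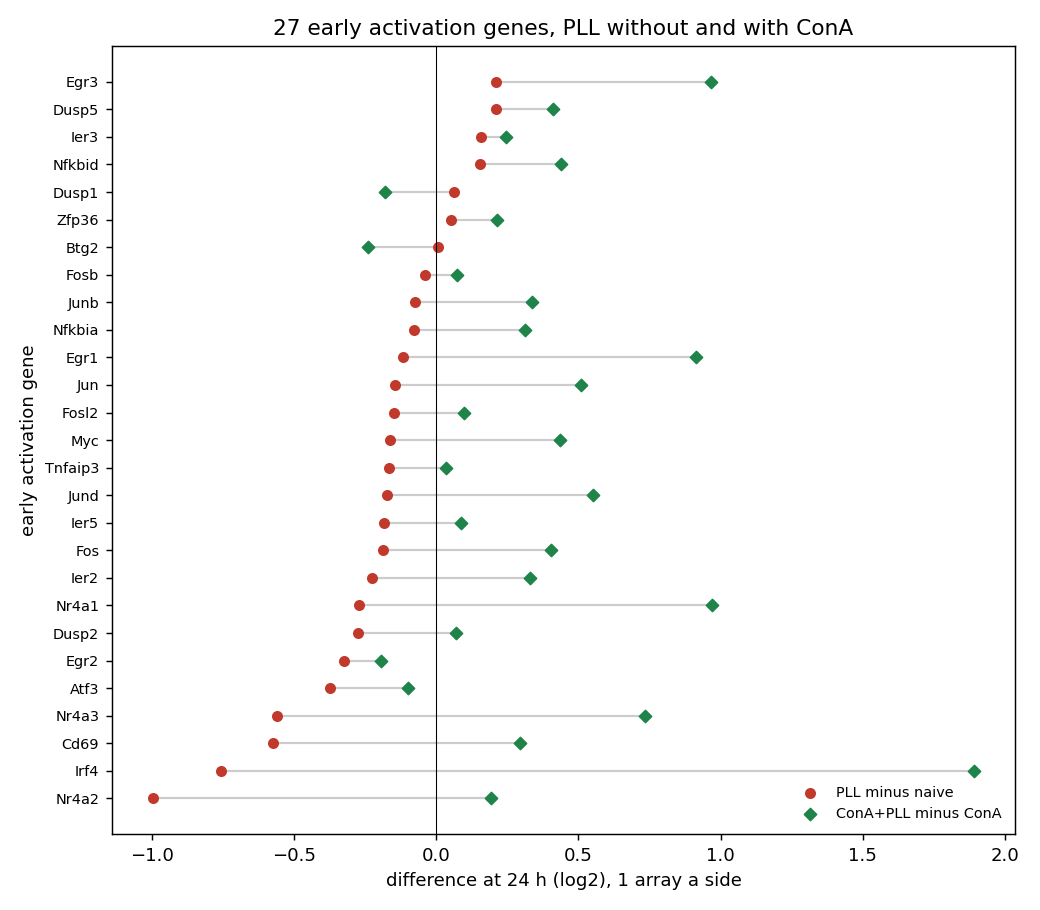
The x axis gives 2 differences at 24 h on the log2 scale for each of 27 early activation genes on the y axis, PLL minus naive (red circles) and ConA+PLL minus ConA (green diamonds), each from 1 array a side. Without ConA 20 of 27 genes lie left of 0, and with ConA 23 of 27 lie right of it.

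Signs of activation were not uniform. Among 13 cytokine genes that passed the filter the median was 0.10. Lta (4.34 on the naive and 4.77 on the PLL array), Ccl3 (3.62 and 4.03) and Ccl5, a chemokine of memory and cytotoxic T cells (8.51 and 8.86), were higher, whereas Ifng (3.10 and 2.75) and Il2 (2.61 and 2.29) were dim and lower. Of 15 checkpoint and costimulatory receptors 9 were above 0 and 6 below, with a median of 0.08 and differences from -0.35 to 0.80. Tigit, an inhibitory receptor, was at 3.75 on the naive and 4.55 on the PLL array (0.80), Pdcd1 (PD-1) at 5.21 and 5.59, and Tnfrsf9 (4-1BB) at 5.49 and 5.81. Of 16 regulatory T cell genes 11 were above 0 and 5 below, with a median of 0.06 and differences from -0.27 to 0.34. Foxp3, which defines that lineage, was at 6.89 and 7.09, and Il2ra, the alpha chain of the interleukin 2 receptor, at 5.49 and 5.83.

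Cell cycle genes were mostly dim and split evenly, with 10 of 20 above 0 and a median of 0.02. Mki67, the proliferation antigen, was at 3.90 on the naive and 4.56 on the PLL array (0.66), and Nusap1, a spindle protein, at 2.73 and 3.34 (0.61). Ccna2, cyclin A, went the other way, at 4.05 and 3.29 (-0.76). The 22 DNA replication genes had a median of -0.03, from -0.33 (Lig1, a DNA ligase) to 0.46 (Pole, a DNA polymerase). Of 8 replication-dependent histone genes 5 were above 0, and H1f5 (2.96 and 2.11) and H4c9 (4.98 and 5.57) were the ones past 1.5-fold, in opposite directions.

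Genes of oxidative phosphorylation and of cytosolic ribosomal proteins had small and mostly negative differences. Of 26 subunits of oxidative phosphorylation 20 were below 0, with a median of -0.10. Sdhd of complex II was at 6.81 on the naive and 6.42 on the PLL array (-0.39) and Cyc1 of complex III at 5.91 and 5.61 (-0.30), whereas Atp5c1 of the ATP synthase was at 5.45 and 6.06 (0.61) and Uqcrq of complex III at 4.33 and 4.82 (0.48). Of 21 cytosolic ribosomal protein genes 18 were below 0, with a median of -0.08, led by Rpl32 at 9.82 and 9.44 (-0.38). Both medians were smaller in size than the median absolute difference of all genes, 0.13. With probe sets averaged within a gene, the ribosomal protein median was -0.05, and with the mean over members in place of the median, the oxidative phosphorylation value was -0.06.

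Lipid, sugar and nucleotide genes were close to 0. The list medians were 0.02 for cholesterol synthesis, 0.05 for fatty acid synthesis, -0.005 for fatty acid oxidation, 0.06 for glycolysis and 0.06 for nucleotide synthesis. Single members departed further, such as Hsd17b7 of cholesterol synthesis (4.01 on the naive and 3.26 on the PLL array). Fasn, the fatty acid synthase, was at 6.87 and 6.85, and Cpt1a, which brings fatty acids into mitochondria, at 7.12 and 6.93. Among polyamine genes, with a median of 0.02, Odc1, which makes putrescine, was at 6.19 and 5.72, and Sat1, which acetylates polyamines for export and breakdown, was at 6.86 and 7.28.

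The genes that serve adhesion and the cell surface were near 0 as well. Of 39 genes of integrins, adhesion and the actin cytoskeleton 21 were above 0 and 18 below, with a median of 0.00, and Tagap1 alone passed 1.5-fold. Members with the next largest differences were Itgal (the alpha chain of LFA-1), at 8.08 on the naive and 8.29 on the PLL array, and the integrin chain Itgb1, at 7.01 and 7.23. On the lower side were the actin crosslinkers Flna (filamin), at 8.36 and 8.10, and Actn4, at 8.31 and 8.08. The ERM proteins that hold microvilli to actin differed by -0.12 (Ezr, 9.56 and 9.44) and 0.01 (Msn, 10.51 and 10.52, or -0.21 as the mean of its probe sets), and the budding ATPases Vps4a and Vps4b by 0.01 and 0.04. Over 21 microvilli and budding genes the median was -0.04. Heparan sulfate and mechanosensing genes had a median of -0.02, with Ext1, which builds heparan sulfate, at 5.73 and 5.43 and Piezo1, a stretch-gated channel, at 6.05 and 6.20. Of 20 p53 targets and Bcl2 family genes 16 were above 0, with a median of 0.09, from Trp53inp1 (-0.22) to Bak1, a pore-forming death protein (0.45).

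**Figure D4:**
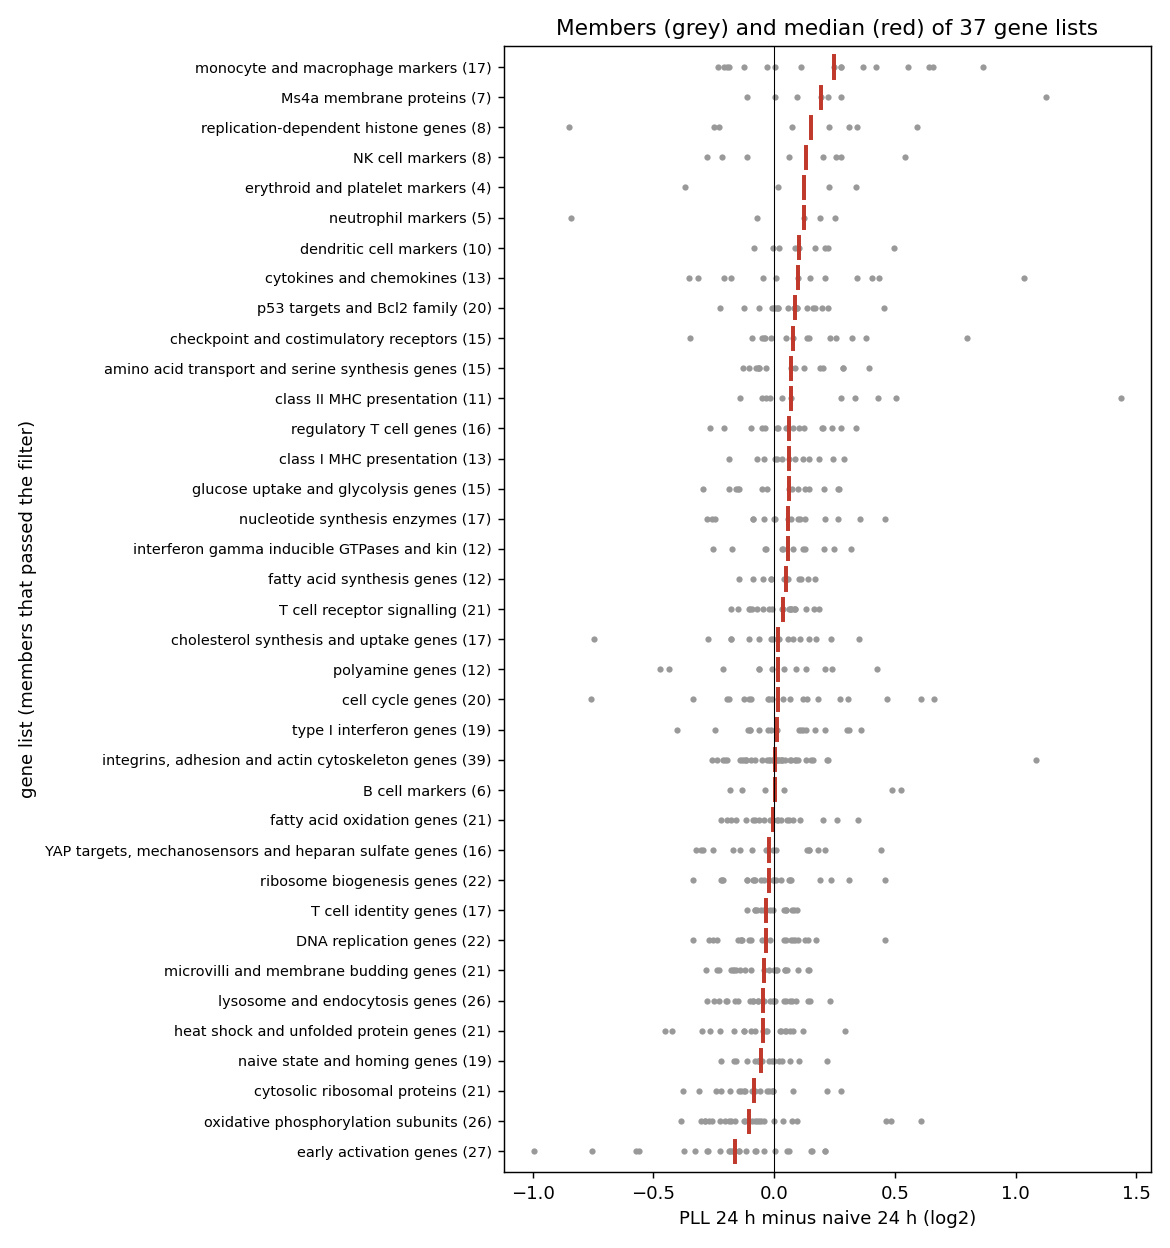
Each row is 1 of 37 gene lists, with the number of members that passed the filter in parentheses, and the x axis gives PLL minus naive at 24 h (log2). Grey points are members and red bars are medians, which run from -0.16 to 0.25, with 28 of 37 within 0.1 of 0. Some genes stand in more than 1 list.

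Next, the PLL and naive pair was set beside ConA+PLL and ConA at 24 h, which shares no array with it and asks for the same change of surface in the presence of the lectin. There 697 genes were higher by 1.5-fold or more (5.19%) and 262 were lower (1.95%), against 136 and 127 without ConA. Across the 13428 genes, which are not independent replicates, Pearson's r between both differences was 0.01, and -0.01 over the 8974 genes at or above 4.10 on all 4 arrays. The genes 1.5-fold higher in both numbered 13, which is 9.56% of the list without ConA and 1.87% of the list with it. The genes 1.5-fold lower in both numbered 7, or 5.51% and 2.67%. With arrays centred on their own median, which moves the median of ConA+PLL minus ConA from 0.08 to -0.05, the counts with ConA became 357 higher and 513 lower, so the excess of higher genes there depends on scale, while the pair without ConA kept 49.4% higher among its 1.5-fold genes, against 51.7%.

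The 13 shared higher genes were Alg6, Ccl22, Cdca7, Gm2427, H4c17, Ifnl3, Mir3090, Mki67, Ms4a4c, Nusap1, Tma16, Tnfrsf1b and Trim30d, so that Ms4a4c and Ccl22 were the 2 of the 13 genes 2-fold higher without ConA that were 1.5-fold higher with it. Ms4a4c differed by 1.12 without and 0.85 with ConA, and Ccl22 by 1.03 and 1.96. H2-Ab1 differed by 1.44 and 0.52. The 7 shared lower genes were Btbd35f17, Gm15446, Gpx2-ps1, Mir1969, Mir328, Mir3961 and Speer4d.

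In 26 genes both differences passed 1.5-fold in opposite directions, against 20 that shared one. The 26 were 15 of the 136 genes higher without ConA and 11 of the 127 lower. The 20 were 13 and 7 of these. With arrays centred on their median, the shared genes became 9 higher and 14 lower, and the opposite ones were not counted. Whether either number exceeds that of unrelated differences was not tested. Tagap1, 1.09 higher without ConA, was at 4.996 on the ConA and 4.29 on the ConA+PLL array (-0.70). Ifi213 differed by 0.81 without and -0.68 with ConA. Irf4 went from -0.76 without to 1.89 with ConA, at 4.35 on the ConA and 6.24 on the ConA+PLL array, and Ccna2 from -0.76 to 1.73. The early activation list as a whole had a median of -0.16 without and 0.31 with ConA, where the median of all genes was 0.08 and 61.6% of all genes lay above 0. With 1 array a side these contrasts were not tested.

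**Figure D5:**
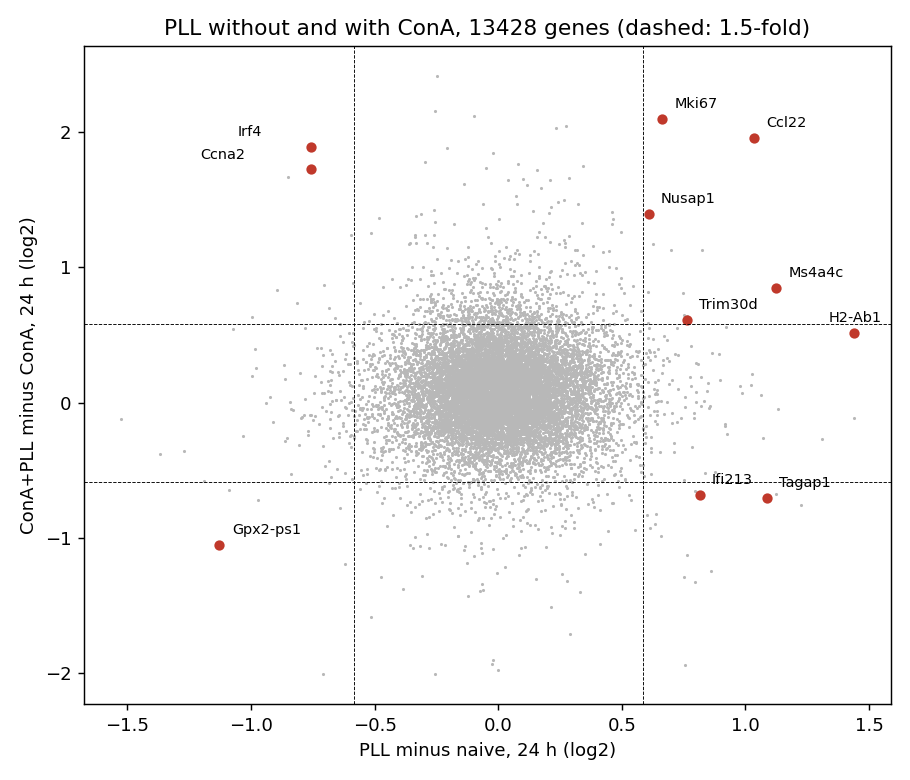
Each point is 1 of 13428 genes, with PLL minus naive on the x axis and ConA+PLL minus ConA on the y axis, both at 24 h and in log2 units, with dashed lines at 1.5-fold. Ms4a4c, Ccl22, Mki67 and Nusap1 lie in the upper right corner, Irf4 and Ccna2 in the upper left, and the cloud as a whole has no slope (r = 0.01).

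PLL was also taken as 1 factor over the 4 pairs of arrays that share no array: PLL 3 h and naive 0 h, ConA+PLL and ConA at 3 h, and both pairs at 24 h. These pairs differ in time and in ConA, so they are not replicates of PLL alone at 24 h. A fit over them gives a mean over unlike settings, and differences between the settings count as error. In the pair of PLL 3 h and naive 0 h, time in culture and PLL cannot be told apart. The differences of the 24 h pair had no relation to those at 3 h across genes, with r = 0.00 for PLL and -0.03 for ConA+PLL. In a limma fit with the pair as a block, chosen after the data had been seen, 0 of 13428 genes (0%) had an adjusted p below 0.05, and 633 (4.71%) had an unadjusted p below 0.05. Leaving out each pair in turn also gave 0.

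The gene with the smallest p was Trim30d, of a family of interferon-inducible regulators of inflammatory signalling, with a mean difference of 0.82 (95% interval 0.56 to 1.09, limma adjusted p = 0.755). It was at 3.08 on the naive and 3.84 on the PLL array at 24 h, both under 4.10, and the higher level of each of the 4 pairs was that with PLL. Ms4a4c had a mean difference of 0.79 (0.49 to 1.09, limma adjusted p = 0.849), with differences of 0.74 for PLL and 0.44 for ConA+PLL at 3 h. The intervals of Trim30d and Ms4a4c are adjusted neither for the number of genes nor for the choice of these genes by their values. Genes at least 0.3 higher in all 4 pairs numbered 14 of 13428 and included Cdca7, a Myc target, Gbp8, a guanylate-binding protein, Foxp4 and Ppif. Genes at least 0.3 lower in all 4 numbered 10 of 13428 and included Abcb1b, a drug efflux pump, and H2bc21, a histone gene. Genes above 0 in all 4 pairs made up 7.31% of the total and genes below 0 in all 4 5.18%. H2-Ab1 and Ccl22 were not among them, with -0.51 and -0.23 for PLL at 3 h. In the single pairs, the shares above 0 were 50.3% (PLL) and 61.6% (ConA+PLL) at 24 h and 50.1% and 47.1% at 3 h. Whether more genes agreed in all 4 than these shares alone would give was not tested.

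The promoter windows of Ms4a4c and Trim30d are printed (RefSeq, GRCm38.p6, 250 bases before to 50 after the gene start), as both genes were higher with PLL in all 4 pairs. The letters GAAA, any 2 bases and GAAA again, the core of an interferon response element, found in 3.44% of all windows on either strand, are in capitals where present. Of the 14 genes at least 0.3 higher in all 4 pairs, 13 had a window and 1, Trim30d, held the letters, on the reverse strand 41 bases before the start.
Ms4a4c, chr19:11407411-11407710 (+): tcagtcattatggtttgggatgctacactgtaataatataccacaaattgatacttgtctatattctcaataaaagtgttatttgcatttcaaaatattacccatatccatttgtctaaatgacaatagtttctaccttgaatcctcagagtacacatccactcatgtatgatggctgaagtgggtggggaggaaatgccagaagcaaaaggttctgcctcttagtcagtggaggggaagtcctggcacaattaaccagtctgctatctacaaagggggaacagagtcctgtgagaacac
Trim30d, chr7:104507800-104508099 (-): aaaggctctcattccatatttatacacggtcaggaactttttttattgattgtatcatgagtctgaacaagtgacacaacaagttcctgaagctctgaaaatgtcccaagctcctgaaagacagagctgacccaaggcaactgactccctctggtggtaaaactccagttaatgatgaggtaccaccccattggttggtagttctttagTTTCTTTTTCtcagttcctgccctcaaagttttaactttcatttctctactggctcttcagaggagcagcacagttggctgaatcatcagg
Other interferon genes had medians near 0 in the 24 h pair without ConA, but not in all other pairs. The 19 type I interferon genes that passed the filter had a median of 0.01, from -0.40 (Isg15) to 0.36 (Usp18), and the 12 interferon gamma genes one of 0.06. With ConA at 24 h the medians were 0.30 (type I) and 0.98 (gamma), against 0.08 over all genes. For PLL at 3 h they were 0.24 and 0.28, against 0.00. For ConA+PLL minus ConA at 3 h they were -0.29 and 0.44, against -0.02. These medians were not tested.

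Lastly, the ConA array of 24 h, from a group without PLL, was set against both arrays of the pair. Like the naive array, it came from cells without PLL. Its level was nearer to PLL than to naive in 51.6% of all genes, in 58.8% of the 136 genes 1.5-fold higher and in 63.0% of the 127 genes 1.5-fold lower. Where both levels of the pair were at or above 4.10, it was nearer to PLL in 27 of 45 higher (60.0%) and 17 of 31 lower (54.8%). Among the 21 genes at least 2-fold apart it was nearer to PLL in 7 of 13 higher and 5 of 8 lower. The filter bears on these counts. Defb5, Esp15, Gm8127 and Mir1969, all among the 5, passed it through the naive array of 24 h alone. Their ConA level thus had to lie below the filter. Gm2046 passed through the PLL array of 24 h alone, and its ConA level was nearer to naive. For these genes the counts cannot place the ConA array. How far the filter shaped the 1.5-fold shares was not tested. H2-Ab1, Ms4a4c, Ctrcos, Tagap1 and Ccl22 were on the PLL side, and Mir186, Mir188, Obox3 and Olfr1329 on the naive side, where the PLL array stood apart from the other 3 of 24 h.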

How the data were processed

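RNA of mouse CD3 T cells was read on 8 Affymetrix Mouse Gene 2.0 ST arrays, 1 per group. The authors normalized the arrays with RMA and deposited log2 expression values. The table does not state its log base, which was read from its range (1.15 to 13.5). The software version and the genome build were not given in the sources used here, nor was which arrays were normalized together. Array medians ran from 3.53 to 3.69, and the number of arrays limits the precision.

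Of 41345 probe sets, 23521 had 1 gene symbol in the platform annotation, 1820 had several and 16004 had none. Only the first were named. The brightest probe set of a gene was kept. Named are all genes at least 2-fold apart and the 10 largest differences each way among genes with both levels at or above 4.10. A fixed set tied to the study's questions is named too. From each list, at most 6 genes of large difference were planned. The text goes beyond this for some lists, with more early activation genes and with genes of small difference such as H2-DMa and Ctss. Further genes come from the comparisons with other arrays. The pair, the gene lists and the markers were chosen with earlier results of these data known. limma 3.58.1 (R 4.3.3) was used over the 4 pairs, with numpy 2.4.6 and pandas 2.3.3 for the rest, and scripts were tested on simulated data. Alternatives were other scalings, filters, probe set means, a 1.5-fold limit and other control arrays.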

Additional observations from a re-analysis of the deposited data

Results flagged for a closer look

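In 7 named genes the PLL difference at 24 h passed 1.5-fold in one direction without ConA and in the other with it. The value given for each is the difference with ConA minus that without, in log2 units. It was 2.65 for Irf4, 2.52 for the histone gene H1f5 and 2.48 for Ccna2, which were lower with PLL alone and higher with PLL and ConA. It was -1.98 for 8430436N08Rik, -1.80 for Mir669a-3, -1.79 for Tagap1 and -1.496 for Ifi213, which were higher with PLL alone and lower with PLL and ConA. With 1 array a side, the difference was not tested in any of them. Ifi213 was the only one of the 7 with both levels of the pair without ConA at or above 4.10.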

How the results depend on the processing

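Quantile normalization, centred arrays, the mean of all probe sets, no filter, a filter on the pair itself and the ConA 24 h array as control kept both 2-fold counts within 1.5 times of 13 higher and 8 lower. A filter on the mean gave 7 and 2, the brighter filter 9 and 3, a 1.5-fold limit 136 and 127, and the naive 0 h array as control 278 and 191. Of 222 list medians under alternatives 216 moved by less than 0.13, and of 201 values of named genes 198 did. The 6 others were the class II median (0.23 with no filter, 0.26 as a mean), the monocyte median (0.09 with no filter), the B cell median (0.27 with the brighter filter) and the neutrophil median (-0.07 as a mean, 0.25 with the brighter filter). In 16 of the 222 the sign turned, such as glycolysis (0.06 to -0.02 with probe sets averaged) and fatty acid synthesis (0.05 to -0.01 with no filter). Alternatives for the pair with ConA were chosen after seeing the data. Centred arrays gave 357 genes 1.5-fold higher and 513 lower, with 14 lower in both pairs, and the brighter filter gave 3 lower in both pairs. Under the brighter filter 104 of 178 genes at least 1.5-fold apart had the ConA array nearer to PLL, against 160 of 263. The pair was the closest of 28 under all 4 alternatives run. No paired analysis was possible because each group holds 1 array and the labels carry no replicate numbers. This refers to pairing by replicate: the limma fit over 4 pairs blocks by time and ConA. No array could be left out within a group.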
